A study of Mus musculus with 2 samples.

Results

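The ephrin, Slit-Robo and netrin guidance genes were followed in mDE6 cells after 6 h with CHIR99021. The set held 37 genes: the Eph receptors and their ephrin ligands, the Slit ligands and Robo receptors, and the netrins with their receptors of the Unc5 and Dcc families. Its members were every probe whose gene name on the array equals 1 of these 37 symbols, which gave 89 of 56605 probes and 37 of 37074 gene names. mDE6 is a mouse odontogenic epithelial cell line, and CHIR99021 is an inhibitor of the kinase GSK-3, which lets β-catenin accumulate. Total RNA was measured on 1 array from cells given vehicle (DMSO) and 1 array from cells given CHIR99021, both collected at 6 h and both labelled with Cy3. The label gives the dose as 5 mM, whereas the study's methods give the same figure in μM and call the control untreated. No genetic change is named for either sample. With 1 array per condition there was no replicate and no test, and every ratio compares these arrays only.

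Eph receptors are receptor tyrosine kinases whose ligands, the ephrins, are held on the surface of the neighbouring cell, so that signals pass in both directions where cells touch. Ephrin-A ligands are anchored by a lipid and ephrin-B ligands span the membrane. Slits are secreted proteins that repel cells and axons through Robo receptors, and netrins are secreted cues that attract through Dcc or neogenin and repel through Unc5 receptors. The same molecules sort cells and set tissue boundaries outside the nervous system, and several of them are expressed in the developing tooth.

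Each array carried 59305 spots besides its controls; the share well above background was 49.8% in the vehicle and 48.3% in the CHIR99021 sample. Lef1 is a transcription factor of the Wnt pathway and itself a Wnt target. At the 1 detected probe of 3 it had 239 ± 24.5 on the vehicle array and 690 ± 69.3 on the CHIR99021 array, a ratio of 3.0. Axin2, the feedback inhibitor used as a readout of β-catenin, was at least 1.66-fold higher. The Axin2 value comes from the 1 detected probe of 2, in row 312. That probe was tested only through the CHIR99021 array and was not called (Z-score 0.91, a measure explained further on). The epithelial label was checked against marker genes. Trp63 (2306, at 2 of 4 probes), Krt14 (48.5) and Krt18 (25.7) were well above background on the vehicle array, whereas Cdh1, Epcam, Krt8 and Krt5 were not. The Krt18 signal lay near the lowest one called well above background there, 23.7, and was not well above background on the CHIR99021 array. All 8 mesenchymal markers, among them Col1a1 and Vim, were well above background on both arrays. Their vehicle signals ran from 137 to 270783 at the brightest probe of each gene. Of 5 endothelial markers only Pecam1 was detected, in the vehicle sample, and of 6 neuronal markers 4 were. None of 5 ameloblast genes was detected.

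Signals below are the background-subtracted intensity of a probe with the error that the scanner software assigns to it. Ratios are CHIR99021 over vehicle after each array was divided by its own 75th percentile, 486.7 for vehicle and 469.2 for CHIR99021. The error of a log2 ratio was propagated from the errors of both signals. It had a median of 0.21 over the guidance probes measured on both arrays and does not cover variation between cultures. For comparison, different probes of the same gene differed by a median of 0.13 log2 over 3872 genes with a pair of probes, and by at most 0.49 for 9 in 10 of these genes.

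The probes on which the results turn are identified here by their genomic position in mm9, as the files give it, and by their first 30 of 60 bases, printed 5′ to 3′. The files name the gene of each probe but not the exon, and all of these probes lie on the minus strand. Those of Epha4, Ephb2 and Unc5b were measured on both arrays. Those of Epha5 and Epha8 were seen on the CHIR99021 array only. The Robo2 probe was the single detected probe of that gene. The position follows each name.
Epha4, chr1:77370232-77370291: ctcaaaactctcgaatagtttacctcatcc
Epha5, chr5:84760253-84760312: ttcccattgggaaatgcatgtgcaaggctg
Epha8, chr4:136485335-136485394: tgtggttcccatcctgagtctggaatcact
Ephb2 (first), chr4:136209527-136209586: cagggaatccgagcagaacaatcggttagt
Ephb2 (second), chr4:136211203-136211262: accagatccagtctgtagaggtttgacatt
Unc5b (first), chr10:60225398-60225457: cctgttcgtccattctgtaaataacttgta
Unc5b (second), chr10:60227361-60227420: ttagggaacgcaaatgatttattatccaga
Robo2, chr16:73894653-73894712: caaatctgtttgacccattttgaatgagta

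On the vehicle array 35 of the 89 guidance probes were well above background, a share of 39.3% against 47.7% of all probes on the array. They belonged to 26 of the 37 genes. The CHIR99021 array showed 37 probes of 27 genes. Both arrays measured 34 probes, the vehicle array alone measured 1 (Epha7), the CHIR99021 array alone measured 3 (Epha5, Epha8 and 1 Dcc probe), and 51 were not well above background on either. All 5 EphB receptors, all 5 ephrin-A ligands and all 3 ephrin-B ligands were detected in the vehicle sample, as were Slit2, Slit3, Robo1, Robo2, Ntn1, Unc5b, Unc5c, Neo1 and 4 EphA receptors (Epha2, Epha3, Epha4 and Epha7). The last of the 26, Dcc, counts through a repeat probe described further on. Epha1, Epha6, Epha10, Slit1, Robo3, Robo4, Ntn4, Unc5a and Unc5d had no probe well above background on either array, where their highest signals were 26.3 on the vehicle array (Epha1) and 13.8 on the CHIR99021 array (Slit1). Robo4, an endothelial Robo, was thus not detected in either sample. A dark probe gives only an upper bound and does not show that the gene is silent.

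**Figure D1:**
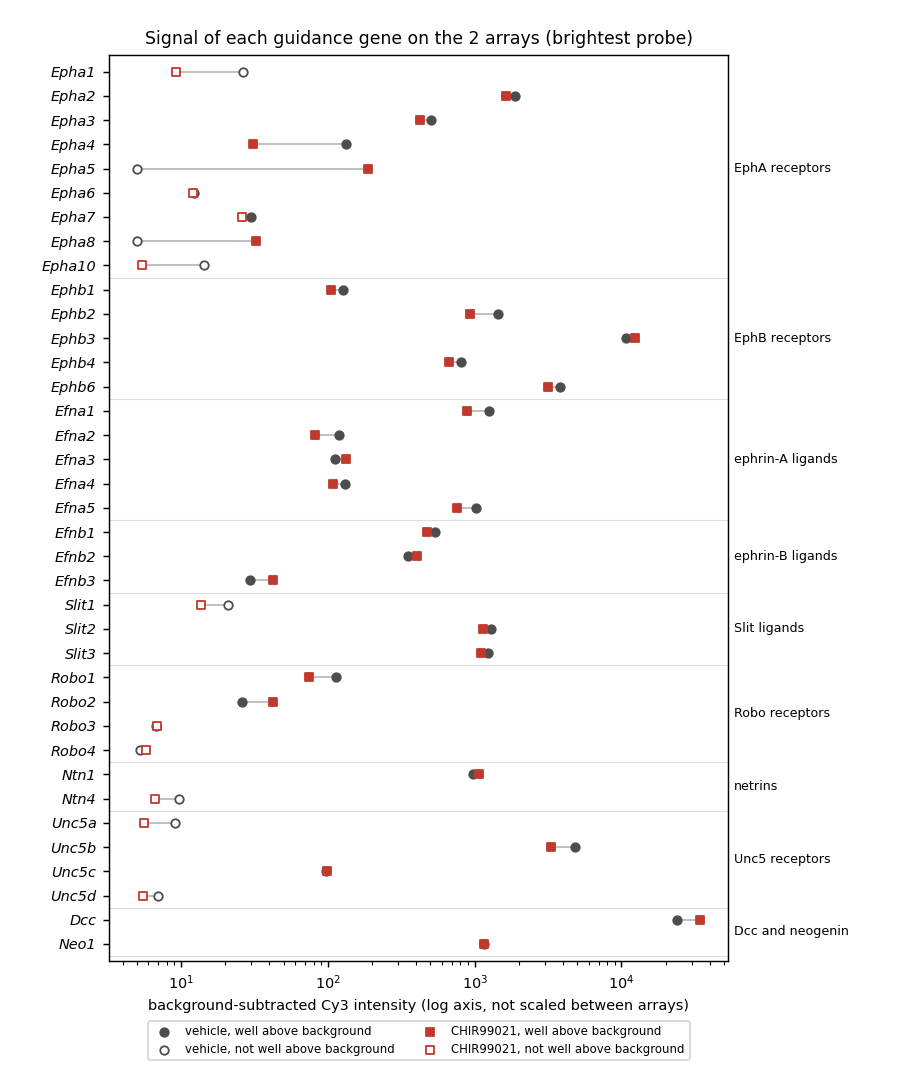
Background-subtracted Cy3 intensity (log axis, arbitrary units, not scaled between arrays) of the brightest probe of each of the 37 genes on the vehicle array (grey circles) and the CHIR99021 array (red squares); open symbols are not well above background. Most pairs lie close together, Epha4 is lower after CHIR99021 (133 against 30.9), and the pairs of Epha5 and Epha8 have an open vehicle symbol. The Dcc pair comes from the repeat probe placed on chromosome 7, not on the chromosome of the gene.

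Among the EphA receptors, the clearest difference was at Epha4, a receptor that binds ephrins of both classes. Its only probe had a signal of 133 ± 14.3 in the vehicle sample and 30.9 ± 6.82 in the CHIR99021 sample. The scaled ratio was 0.241, a log2 ratio of -2.05 ± 0.35, so the difference was several times the error of the signals. The CHIR99021 signal lay just above the lowest signal called well above background on that array, 26.3. Fewer cells that express Epha4 and less of its RNA per cell cannot be told apart in these bulk samples. The spot lies in row 320 of 384, and its pixels were even on both arrays. With background correction by normexp and an offset of 50 the ratio was 0.50, and the Z-score criterion given further on was not met. With a floor on low signals the ratio remained 0.241, but that criterion was not met either.

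Epha2, which is expressed in many epithelia, had 1 probe with a signal of 1876 ± 188 in the vehicle sample and 1632 ± 163 in the CHIR99021 sample, a ratio of 0.902 that lay within its error. Epha3 had 3 probes measured on both arrays, with ratios of 0.873, 1.05 and 1.23. They lay on both sides of 1 and gave no common direction. Epha7 was well above background in the vehicle sample alone, with 29.8 ± 6.40 against 26.2 ± 6.72, a difference smaller than either error.

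Epha5 and Epha8 were seen after CHIR99021 only. The Epha5 probe had 5.05 in the vehicle sample and 188 ± 19.6 in the CHIR99021 sample, which makes it at least 8.22-fold higher by the lowest signal well above background. With normexp and an offset of 50 the Epha5 ratio was 3.93. The other 5 Epha5 probes were dark on both arrays, with signals of at most 5.79 in the vehicle and 7.02 in the CHIR99021 sample. The bright spot lies in row 322, and the SD of its pixels over their mean was 0.387 on the CHIR99021 array, above the 0.261 that 99% of bright spots in the earlier rows stayed under. The Epha8 probe had 5.04 in the vehicle sample and 32.7 ± 6.45 in the CHIR99021 sample, at least 1.43-fold higher. Its pixels were even (0.219), and it is the only Epha8 probe. Over all tested probes, 1060 were seen on the CHIR99021 array alone; 75.8% of them were past the middle row and 44.8% were uneven by this measure, against 1.41% of the probes measured on both arrays. What part the uneven spots have in the Epha5 value was not tested.

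The EphB receptors prefer ephrin-B ligands. Ephb3 had 10751 ± 1075 in the vehicle sample and 12446 ± 1245 in the CHIR99021 sample, a ratio of 1.20. Ephb6, whose kinase domain is inactive, had 3806 and 3183, a ratio of 0.868. These ratios differed from 1 by little more than the error. Both Ephb2 probes were measured on both arrays, and they disagreed. The first had 1432 ± 143 against 931 ± 93.3, a ratio of 0.674, and the second had 188 ± 19.4 against 186 ± 19.5, a ratio of 1.03. The files assign them to different transcripts of the gene, and the gap of 0.61 log2 between them exceeded that of 9 in 10 genes with a pair of probes. Ephb4 gave 0.853, 0.845 and 1.08 at 3 probes, and Ephb1 gave 0.859 at the single detected probe of its pair.

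Of the 5 ephrin-A ligands, 4 had a ratio below 1. Efna1 had 1255 ± 126 in the vehicle sample and 882 ± 88.4 in the CHIR99021 sample, a ratio of 0.729. Efna2 had 120 ± 12.9 and 82.4 ± 9.83, a ratio of 0.714. Efna5 had 1028 ± 103 and 756 ± 75.9 at its brighter probe, a ratio of 0.763, and its other detected probe gave 0.774. The log2 ratios at these 3 ligands were each about 2 times their error, and both Efna5 probes gave the same value to within 0.02 log2. Efna4 had a ratio of 0.872 and Efna3 of 1.22, both near the error. All 6 ephrin-A probes measured lay in the earlier rows of the array, and none of their spots was uneven.

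The ephrin-B ligands ran the other way at 2 of 3 genes. Efnb2, known as a marker of arteries and a partner of Ephb4, had 353 ± 35.7 in the vehicle sample and 408 ± 41.2 in the CHIR99021 sample, a ratio of 1.20. Efnb1 had 539 and 476, a ratio of 0.916. Efnb3 had a dim pair of 29.3 ± 6.35 and 42.1 ± 7.43, a ratio of 1.49 whose log2 error of 0.40 was the largest among the members measured on both arrays, and its vehicle spot was uneven (0.281). None of these ligands met a criterion for change.

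**Figure D2:**
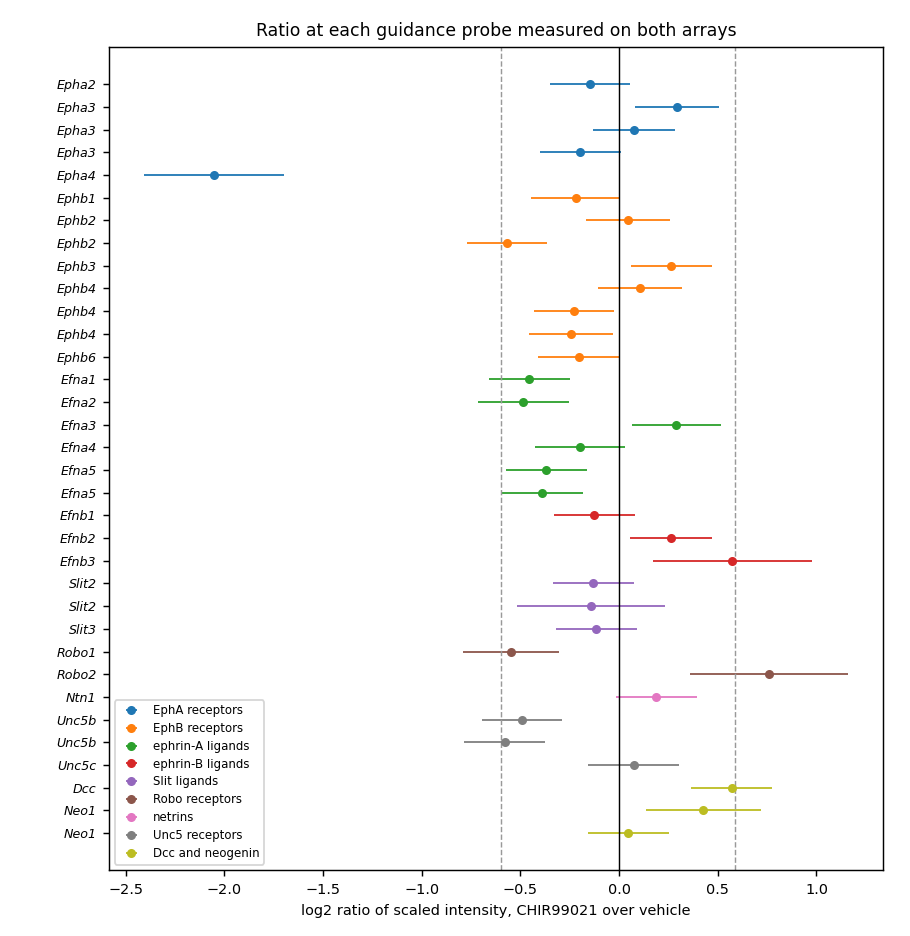
Log2 ratio of scaled intensity, CHIR99021 over vehicle, at the 34 guidance probes measured on both arrays, coloured by family; bars are the error propagated from the scanner software's signal errors, and dashed lines mark ratios of 0.66 and 1.5. Epha4 stands alone at -2.05, and Robo2 at 0.76 is the only probe past the upper line.

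Slit2 and Slit3, the Slit ligands detected here, were each slightly lower in the CHIR99021 sample. Slit2 had 1287 ± 129 in the vehicle sample and 1134 ± 114 in the CHIR99021 sample, a ratio of 0.914, and a second, dim probe gave 0.906. Slit3 had 1240 ± 124 and 1104 ± 111, a ratio of 0.923. All 3 ratios lay within the error. Their receptors went in opposite directions at dim probes. Robo1 had 113 ± 12.4 and 74.5 ± 9.41 at the 1 detected probe of 6, a ratio of 0.684. Robo2 had 26.0 ± 5.70 and 42.4 ± 7.16 at the 1 detected probe of 8, a ratio of 1.69 with a log2 error of 0.40. With normexp the Robo2 ratio was 1.23. Another Robo2 probe, not called well above background, had 27.3 and 29.9, so the higher Robo2 signal was seen at a single dim probe.

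The netrin ligand Ntn1 had 978 ± 97.9 in the vehicle sample and 1074 ± 108 in the CHIR99021 sample, a ratio of 1.14 that lay within its error. Its receptor Unc5b, which can signal cell death when netrin is absent, was lower at both of its probes. The first had 4853 ± 485 and 3323 ± 332, a ratio of 0.710, and the second had 732 ± 73.4 and 472 ± 47.6, a ratio of 0.669. The probes lie in rows 323 and 158, in different parts of the array, and differed by 0.09 log2. Unc5c, the other Unc5 receptor detected, had nearly the same signal in both samples, with a ratio of 1.05. Neogenin (Neo1), the Dcc relative that also binds repulsive guidance molecules, had 1157 and 1152, a ratio of 1.03, and 1.34 at a dim second probe.

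Dcc needs a separate account, because its probes are not all placed on the chromosome of the gene. Of 6 probes named Dcc, 5 are placed by the files on the chromosome of the gene, and 4 of these were dark on both arrays. The fifth, in row 308, had 5.75 in the vehicle sample and 82.4 ± 10.4 in the CHIR99021 sample, at least 3.61-fold higher, at an uneven spot (0.357). The sixth is placed on chromosome 7, and 51 of its 60 bases are a run of 17 GAA triplets. It had 23885 ± 2388 and 34180 ± 3418, a ratio of 1.48. The array holds 11 probes with a run of at least 10 GAA triplets, under different gene names, and all 11 were bright in the vehicle sample, from 14384 to 28611, with ratios from 1.30 to 1.48. The ratio at the probe named Dcc was the highest of these 11, and what it measures was not tested. No Dcc probe on the gene's own chromosome was well above background in the vehicle sample.

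In all, 38 guidance probes were well above background on at least 1 array and could be set against the criteria of a ratio of at most 0.66 or at least 1.5. Only Epha4 was at or under 0.66, 1 probe or 2.63% of the 38, where 9.68% of the 28066 tested probes of the array were. At or above 1.5 were 4 probes, those of Epha5, Epha8, Robo2 and Dcc, or 10.5%, where 8.24% of all tested probes were; 3 of these 4 were not well above background in the vehicle sample, and the limit of Epha8 falls under 1.5. A second criterion was a Z-score of at least 2 in size, taken among the 500 probes of the most similar signal. Epha4 met it with -2.23, Epha5 with 3.02 and the GAA probe of Dcc with 2.08, but the last missed the ratio criterion. The Epha5 value uses the ratio as computed from a dark vehicle spot, and with low signals raised to the floor it was 2.62. Both criteria together called Epha4 lower and Epha5 higher, where they called 2.72% of all tested probes lower and 2.35% higher. The Epha5 probe was tested only through the CHIR99021 array. Its call is absent without uneven spots and where detection on both arrays was required, because both settings leave the probe out. The calls of Epha4 and Epha5 are each 1 of 38 guidance probes, a share of 2.63%, close to the background. The just-missed values were 0.669 and 0.674 at Unc5b and Ephb2 on the lower side and 1.49 at Efnb3 and 1.48 at the GAA probe of Dcc on the upper side. The part of the array past its middle row held 21 of the 38 probes (55.3%) and 51.6% of all tested probes.

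The ratio of each gene was also taken at its brightest probe. Over the 25 guidance genes so measured on both arrays, 16 had a ratio below 1 and 9 above, with a median of 0.902 and the middle part (25th to 75th percentile) from 0.763 to 1.14. Over all 16886 genes measured this way the median was 1.02, 44.9% were below 1, and the middle part ran from 0.884 to 1.17. By family, the median ratio was 0.763 for the ephrin-A ligands, 0.859 for the EphB receptors, 0.873 for the 3 EphA receptors and 1.20 for the ephrin-B ligands. It was 0.918 for the Slits, 0.881 for the Unc5 receptors, 1.19 for the Robo receptors and 1.26 for Dcc and neogenin, each over 2 genes (without the GAA probe, the last rests on Neo1 at 1.03), and Ntn1 alone gave 1.14 for the netrins. Over the scalings run, which mostly shift all probes alike, the ratio crossed 1 at Neo1, from 0.995 to 1.08. With normexp Epha7 was at 1.00. The choice of probe also turned directions: at the probe with the highest ratio, Epha3 was 1.23, Ephb2 1.03 and Ephb4 1.08.

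**Figure D3:**
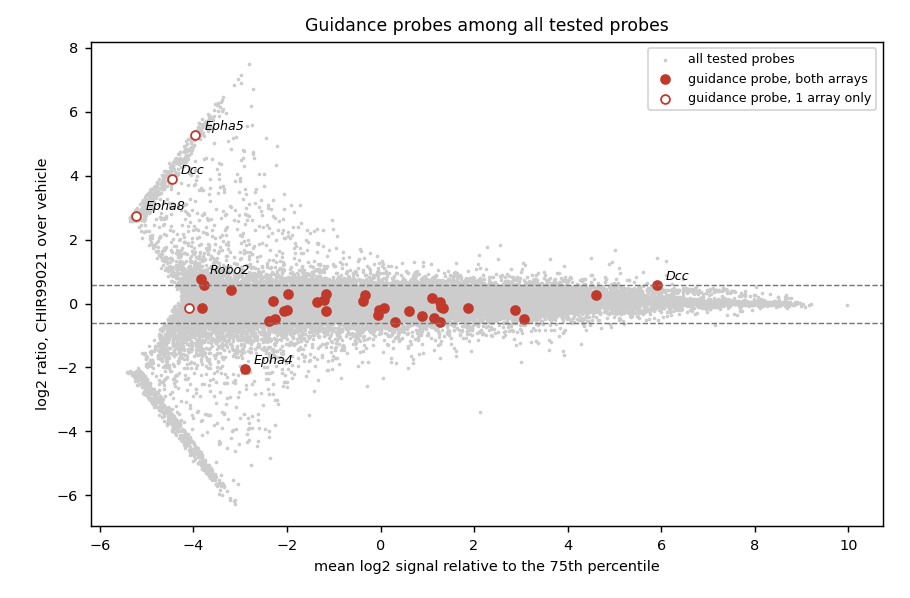
Log2 ratio, CHIR99021 over vehicle, against mean log2 signal relative to the 75th percentile for all 28066 tested probes (grey) and the 38 guidance probes (red, open where seen on 1 array only); dashed lines mark ratios of 0.66 and 1.5. Most guidance probes lie within the body of the array's probes, Epha4 (0.241) lies at its lower edge, and the open symbols of Epha5, Dcc and Epha8 lie on the arm formed by probes seen on the CHIR99021 array alone.

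**Figure D4:**
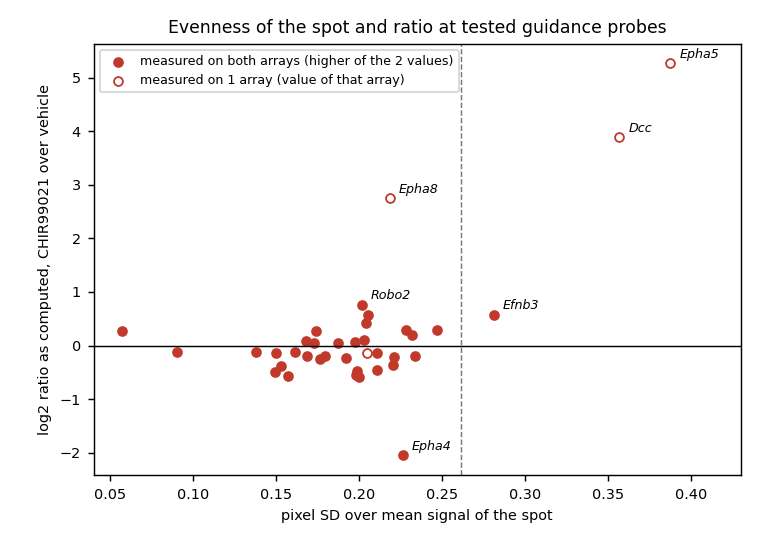
Log2 ratio as computed, CHIR99021 over vehicle, against the pixel SD over mean signal of the spot at the 38 tested guidance probes; the dashed line at 0.261 is the limit set by spots in the earlier rows. Epha5 (0.387), Dcc (0.357) and Efnb3 (0.281) lie beyond the limit, and Epha4 and Robo2 lie within it.

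The proteins that carry these signals into the cell were listed apart from the receptors and ligands: 12 further ligands and co-receptors, 22 effectors and 3 proteases that cleave ephrins or their receptors. Of these 37 genes, 33 were detected in the vehicle sample, and the median ratio was 0.945 over the 32 measured on both arrays. Both criteria were met by 1 of the 33 tested genes in each direction, near the 2.72% (lower) and 2.35% (higher) of all tested probes, so that these counts are no result about the list. The 2 genes were Slit-Robo GTPase-activating proteins, which bind the tail of Robo. Srgap1 had 200 ± 20.5 in the vehicle sample and 624 ± 62.7 in the CHIR99021 sample, a ratio of 3.24. Its other 2 probes were dark in the vehicle sample and lit after CHIR99021, with 17.4 against 50.2 and 13.7 against 34.8 at probes tested only through the CHIR99021 array. Srgap3 had 1243 ± 124 and 750 ± 75.3, a ratio of 0.626 at its single detected probe. Srgap2 gave 1.23 and 0.781 at 2 probes, on both sides of 1. Of the proteases, Adam10 had a ratio of 0.862 and Adam17 of 0.973.

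TCF and LEF factors are DNA-binding partners of β-catenin. The start regions of the guidance genes were read for the core of their binding motif, CTTTGAT or CTTTGAA, on both strands. RefSeq windows of 300 bases around the start (assembly GRCm38.p6) were given for 32 of the 37 genes, 37 windows in all. The motif was found in 1 of them, that of Epha2, 209 bases before the start, a share of 2.70% against 8.65% of 32851 windows of all genes. The guidance windows had a median GC content of 65.0%, against 52.7% for all windows. The 250 bases before the start are shown for Epha2, which holds the motif (in capitals), and for Epha4, the gene with the lowest ratio, which holds none in this window. The Epha2 stretch is on the plus strand at chr4:141300971-141301220 and the Epha4 stretch on the minus strand at chr1:77515089-77515338.
Epha2: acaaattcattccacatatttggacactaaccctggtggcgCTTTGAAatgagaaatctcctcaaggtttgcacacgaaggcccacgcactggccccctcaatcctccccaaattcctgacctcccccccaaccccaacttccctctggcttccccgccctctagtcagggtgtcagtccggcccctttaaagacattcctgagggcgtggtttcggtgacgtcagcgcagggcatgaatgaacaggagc
Epha4: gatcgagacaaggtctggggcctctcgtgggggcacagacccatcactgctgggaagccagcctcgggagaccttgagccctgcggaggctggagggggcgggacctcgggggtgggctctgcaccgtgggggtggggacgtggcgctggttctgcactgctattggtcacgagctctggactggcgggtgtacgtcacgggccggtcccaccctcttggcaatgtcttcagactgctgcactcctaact
A match of these letters is not evidence of binding, and Epha2, with the motif, had a ratio of 0.902.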

How the data were processed

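RNA of mDE6 cells was amplified, labelled with Cy3 and hybridised to Agilent mouse arrays, 1 per condition. Both arrays share a slide, and the position on it cannot be told apart from the treatment. The authors deposited intensity values per spot, background-subtracted by Feature Extraction (10.7.1.1 in the file header, 9.5.1.1 per the labels), and a between-array normalized intensity table, used here as an alternative. The file header gives a mouse design and mm9, while the array named in the study's methods is a human one.

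After removal of controls and outlier-flagged spots, replicate spots were averaged and log2 intensity was taken relative to the array's 75th percentile (Python 3.11.15, numpy 2.4.6, pandas 2.3.3). A probe was tested if either array showed it well above background. The Z-score used the mean and SD of the 500 probes nearest in signal. Where 1 array was dark, the fold is a limit against the higher of the probe's own signal and the lowest signal well above background there. Alternatives varied the scaling, background correction (limma 3.58.1, R 4.3.3), filter, gene rule, call rule and spots kept. The calls were tested on simulated data in which the spread of ratios was cut narrower than here. That test therefore does not show how reliable the calls are at dim probes or at probes dark on 1 array. Of the 89 probes, 61 had an accession in the gene table of GRCm38.p6, all under the same symbol. By rule, genes with a probe past the ratio criterion and the 10 with the highest vehicle signal were named in full; signals of other members were added after their values were seen. The members and lists were chosen with earlier results of these data known. Some markers and pathway genes of these lists are not reported here.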

Additional observations from a re-analysis of the deposited data

How the results depend on the processing

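No paired analysis was possible because neither condition was replicated, and the number of arrays limits every value. Of 19 alternatives, 18 were planned; the 1 without the Dcc-named GAA repeat probe was chosen after seeing the data. A value counted as moved past the spot-to-spot SD of 0.03 log2 (220 probes printed 10 times), and a count past 1.5 times. The Epha4 ratio of 0.241 became 0.232 with the percentile over probes detected on both arrays and without scaling, 0.246 with median scaling, 0.253 with spike-in scaling and 0.50 with normexp, below 1 wherever it was measured. The 1 probe called lower, Epha4, was lost (0 probes) with normexp, with a floor on low signals and in the earlier rows only, since its spot lies outside them; under the floor its ratio was still 0.241. The 1 probe called higher, Epha5, was joined by the GAA repeat probe named Dcc (2 probes) with median and spike-in scaling, and by the Dcc probe seen after CHIR99021 only (2 probes) with normexp, the floor and the Z-score from median and MAD. There were 3 called higher with no filter, 4 with the ratio criterion alone and 0 without uneven spots. Where detection on both arrays was required, the 1 probe was Robo2, and in the earlier rows Epha8. The settings without uneven spots, with detection on both arrays and with the earlier rows only leave the Epha5 probe out by design. The 1 probe at a ratio of at most 0.66 became 4 with the percentile over detected probes and without scaling, 2 with quantile normalization or the normalized table, 3 with cyclic loess, 8 with no filter and 0 in the earlier rows. The 4 probes at a ratio of at least 1.5 became 1 with detection on both arrays and in the earlier rows, 7 with no filter and 2 without uneven spots. The median log2 ratio of the member genes, -0.15, stayed below 0 under all settings run. It was -0.20 with the percentile over detected probes and without scaling, -0.12 with median scaling and at the probe with the highest ratio, -0.18 with cyclic loess and the normalized table, -0.082 with spike-in scaling and -0.21 in the earlier rows. The member median minus the median of all genes was -0.18 log2 in the main setting. It was also -0.18 with the percentile over detected probes, median scaling, spike-in scaling, no scaling, cyclic loess and the normalized table. With these scalings the median of all genes thus moved by about as much as that of the members. The cause of the other changes was not tested except where spots or probes were left out.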
